A study of Homo sapiens with 2 samples.

Results

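SOX2 crosslinking was examined on the RNAs of 6 human genes for large proteins: DYNC1H1, MYH9, PRKDC, UBR4, FASN and PLEC. The sites described are all those that touched a fixed interval around each gene, in the hg19 build and on its strand, and the rule itself uses no measured value, although the genes were chosen with earlier results of these data known. It took in 21 of 16964 sites in replicate 1 and 82 of 55830 in replicate 2, or 103 of 72794 over both lists. Both libraries came from HEK293T, a human embryonic kidney line carrying the SV40 large T antigen, after transfection with a plasmid for FLAG-tagged SOX2. Cells received 0.2 mM 4-thiouridine for 16 hours and 365 nm light at 0.4 J/cm2 for both libraries. The libraries are labelled as replicates 1 and 2 and form 1 group. No untreated, untagged or RNA-input library was used here. More crosslinking per RNA molecule and more molecules of an RNA therefore cannot be told apart, and the cell line could not be checked against marker genes.

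PAR-CLIP places a photoreactive uridine analog in nascent RNA, joins it to bound protein by long-wave ultraviolet light and sequences the RNA pieces recovered with that protein. SOX2 is an HMG-box transcription factor that is best known for binding DNA in stem and progenitor cells. Long mRNAs offer many positions at which any RNA-binding protein can be caught, and genes with long introns also yield much unspliced RNA in the nucleus.

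The proteins fall into 4 kinds. DYNC1H1 is the heavy chain of cytoplasmic dynein, which walks along microtubules, and MYH9 is the heavy chain of non-muscle myosin IIA, which pulls on actin. PRKDC is the catalytic subunit of the DNA-dependent protein kinase of DNA end joining. UBR4 is an E3 ubiquitin ligase, and FASN makes palmitate from acetyl-CoA and malonyl-CoA. PLEC encodes plectin, a linker between intermediate filaments and other structures, which is neither a motor nor an enzyme. By GENCODE release 29 (GRCh38), the longest protein-coding transcript measured 20003 nt for DYNC1H1, 15906 nt for UBR4, 15249 nt for PLEC, 13509 nt for PRKDC, 8565 nt for FASN and 7554 nt for MYH9. The median over 19669 protein-coding genes was 2934 nt. At most 1.12% of genes had a longer transcript than DYNC1H1, UBR4, PLEC or PRKDC, against 5.78% for FASN and 8.29% for MYH9, so the last pair is long but less extreme.

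All but 1 of the sites in the 6 intervals lay on the strand of the gene. The opposite strand held 0 sites in replicate 1 and 1 in replicate 2, inside DYNC1H1. The members made up 0.135% ± 0.0163 (SD, n = 2) of all sites, with 0.124% in replicate 1 (95% Wilson interval 0.0810 to 0.189) and 0.147% in replicate 2 (0.118 to 0.182). Across the 605.75 kb covered, this came to 0.347 and 1.35 sites per 10 kb. For scale, strand-specific tiles of 100 kb that held any nuclear site had medians of 0.1 sites per 10 kb in replicate 1 and 0.3 in replicate 2, and 90th percentiles of 0.4 and 1.2. The tiles are fixed bins that need not match genes, while the member values pool intervals placed around genes. The tiles are therefore no matched background.

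Replicate 2 listed more sites than replicate 1 in each of the 6 genes, as it did genome-wide. Over all members the ratio was 3.90, beside 3.29 for the whole lists. The genes differed in this respect. DYNC1H1 had 5 sites in replicate 1 and 10 in replicate 2, PRKDC had 7 and 20, PLEC had 3 and 6, and MYH9 had 4 and 7. UBR4 went from 2 sites to 23, and FASN from 0 to 16. Replicate 2 supplied 92.0% (95% Wilson interval 75.0 to 97.8) of the 25 UBR4 sites and 100% (80.6 to 100) of the 16 FASN sites, against 76.7% (76.4 to 77.0) of all sites. The FASN interval lay above the whole-list value and the UBR4 interval did not. Without UBR4 and FASN, a choice made after their values were seen, 19 and 43 sites were left, a ratio of 2.26. Neighbouring sites of 1 RNA are not independent, so these intervals, which cover counting error only, are too narrow.

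**Figure D1:**
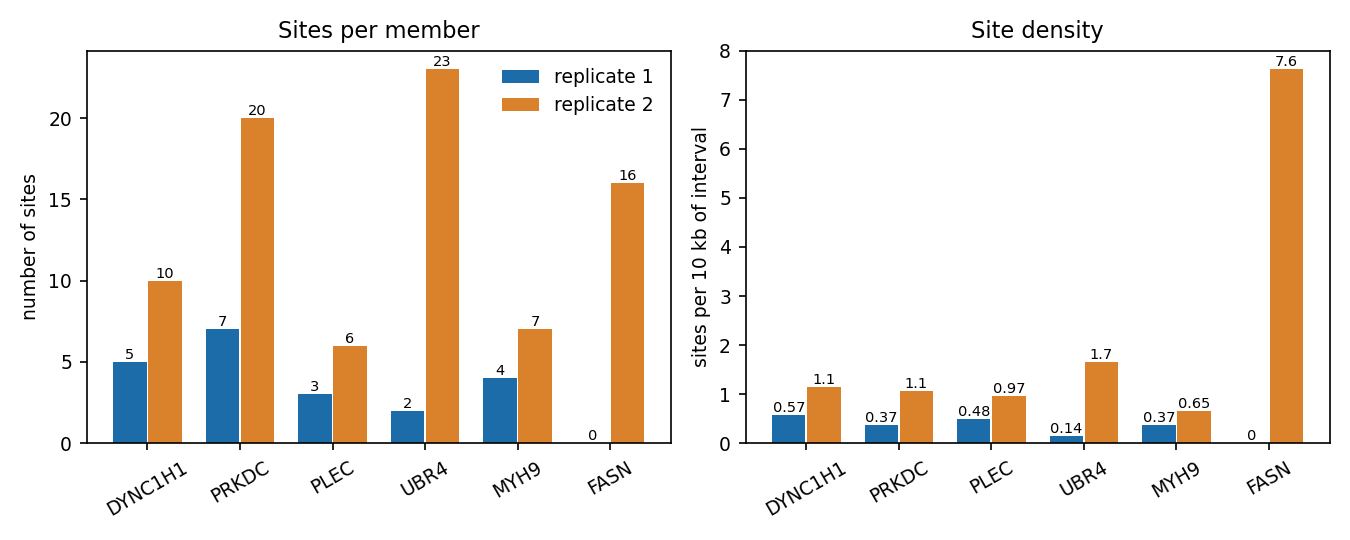
Number of sites (left) and sites per 10 kb of interval (right) for each gene, with 1 bar per library and no error bars because each bar is 1 library. FASN stands at 0 in replicate 1 and at 7.62 sites per 10 kb in replicate 2, while no other bar exceeds 1.65 per 10 kb.

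The density order of the genes was not the same in the libraries. In replicate 1, DYNC1H1 was the densest with 0.568 sites per 10 kb, followed by PLEC with 0.484, PRKDC with 0.373, MYH9 with 0.370 and UBR4 with 0.144. The lead of DYNC1H1 over PLEC rests on 5 against 3 sites, and 2 of the 5 lay only 10 nt apart. In replicate 2, FASN led with 7.62 and UBR4 followed with 1.65. The other 4 genes ran from 1.14 for DYNC1H1 down to 0.648 for MYH9. FASN is the most compact of these genes, with its mRNA amounting to 42.8% of the gene span, against 7.07% for MYH9 and 7.22% for PRKDC. Counted per kb of mRNA instead, the replicate 2 values were 1.87 for FASN, 1.48 for PRKDC, 1.45 for UBR4, 0.927 for MYH9, 0.500 for DYNC1H1 and 0.393 for PLEC. In replicate 1 they were 0.530 for MYH9, 0.518 for PRKDC, 0.250 for DYNC1H1, 0.197 for PLEC and 0.126 for UBR4, so DYNC1H1 led per kb of interval but not per kb of mRNA. The lead of FASN over PRKDC in replicate 2 shrank from 7.62 against 1.07 per 10 kb of interval to 1.87 against 1.48 per kb of mRNA. Whether single sites were exonic or intronic was not determined, because the gene models used here are on another build than the lists. The values per kb of mRNA therefore count every site of an interval, intronic or not. The DYNC1H1 interval, of 88 kb, is also shorter than its GENCODE gene span of 91.9 kb, and widening it by 10 kb added 1 replicate 2 site.

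Both motor genes had sites in each library, none with a score above 60. The score is a whole number attached to each site, and its meaning was not stated by any source used. DYNC1H1 (chromosome 14, plus strand, 102430000 to 102518000) had replicate 1 scores of 33, 10, 44, 57 and 48. Its highest site in replicate 1 lay at 102467994 to 102468009, and 25.4% of that list scored as high or higher. In replicate 2 the 10 scores ran from 6 to 36 with a median of 16, and the highest lay at 102452790 to 102452803. No DYNC1H1 site overlapped between the lists, where only 21.3% of all replicate 1 sites and 6.50% of all replicate 2 sites did. The closest approach was 57 nt, between 102505353 to 102505372 in replicate 1 (score 48) and 102505430 to 102505443 in replicate 2 (score 10). A pair of replicate 1 sites at 102459384 to 102459402 and 102459413 to 102459427 lay only 10 nt apart.

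MYH9 (chromosome 22, minus strand, 36677000 to 36785000) had replicate 1 scores of 7, 16, 60 and 31. The highest lay at 36716685 to 36716698. In replicate 2 the 7 scores ran from 9 to 45 with a median of 15. The highest of them, at 36677807 to 36677830, overlapped the weakest site of replicate 1, at 36677796 to 36677813, by 7 nt. This pair, 796 and 807 nt from the 3′ end of the interval, scored 7 in replicate 1 and 45 in replicate 2, a 6.43-fold difference with 1 value per library and no test. A further 2 sites of replicate 2 stood beside it, at 36678227 to 36678248 and 36678517 to 36678538, with scores of 10 and 15. Of the 4 MYH9 sites in replicate 1, 3 had a replicate 2 site within 1 kb (75.0%, 95% Wilson interval 30.1 to 95.4), beside 53.3% of the whole list. Of the 7 in replicate 2, 5 had a replicate 1 site within 1 kb (71.4%, 35.9 to 91.8), beside 29.5%, and 3 of these 5 lay near the same replicate 1 site. Only 37 nt separated 36712574 to 36712588 in replicate 1 (score 16) from 36712626 to 36712646 in replicate 2 (score 9).

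PRKDC (chromosome 8, minus strand, 48685000 to 48872750) held the 2 member sites of replicate 1 that scored at least 100. They lay at 48802830 to 48802843 with a score of 121 and at 48802855 to 48802868 with a score of 135, separated by 11 nt. The nearest replicate 2 site was 21968 nt away from the stronger one. Elsewhere in the gene, 2 sites recurred with closely matching edges. At 48846535 to 48846552 replicate 1 scored 73, and replicate 2 scored 56 at 48846537 to 48846550. At 48841958 to 48841975 replicate 1 scored 35, and replicate 2 scored 40 at 48841960 to 48841976. In both pairs the starts differed by 2 nt and the scores by at most 1.30-fold. The former was also the highest PRKDC site of replicate 2, whose 20 scores had a median of 20 and a minimum of 11. The remaining replicate 1 sites scored 46, 48 and 10.

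UBR4 (chromosome 1, minus strand, 19398000 to 19537000) had 2 sites in replicate 1, at 19431344 to 19431360 and 19483388 to 19483401, and both scored 15. In that list 76.8% of sites scored at least as high. Replicate 2 had 23 sites with a median score of 15, a minimum of 8 and a maximum of 57. The maximum lay at 19477182 to 19477195. Neither replicate 1 site overlapped a replicate 2 site, beside an overlap of 21.3% over the whole replicate 1 list. The nearest distances were 544 and 9888 nt. The replicate 2 sites lay between 13.0% and 68.9% of the interval, and within that stretch the longest gap between neighbours was 8688 nt and the median gap 2540.5 nt.

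FASN (chromosome 17, minus strand, 80036000 to 80057000) had no site in replicate 1. A count of 0 among 16964 sites allows a share of up to 0.0177% (3 sites), and its 95% Wilson interval reaches 0.0226%. The 16 sites of replicate 2 were 0.0287% of that list (95% Wilson interval 0.0176 to 0.0466). The Wilson intervals of the libraries overlap, and the difference was not tested. Replicate 1 listed no minus-strand site over 160.7 kb around the gene, from 79905851 to 80066552, where replicate 2 listed 29, among them the 16 of FASN. FASN held the strongest member site of either list, at 80047904 to 80047926, with a score of 200. It ranked 1683 in replicate 2, where 3.03% of sites scored as high or higher. The other 15 scores ran from 9 to 63, and the median over all 16 was 33.5. Of the 16 sites, 12 were at or above the median score of the list, as were 52.1% of all its sites. The same held for 12 of 20 sites in PRKDC, 10 of 23 in UBR4, 4 of 10 in DYNC1H1, 2 of 6 in PLEC and 2 of 7 in MYH9.

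PLEC (chromosome 8, minus strand, 144989000 to 145051000) had replicate 1 scores of 13, 16 and 16, all below the list median. In replicate 2 it had scores of 11, 16, 14, 16, 35 and 30. The highest replicate 2 site, at 145037180 to 145037197, lay 41 nt from the replicate 1 site at 145037124 to 145037138, which scored 16. The overlapping pair of the gene lay at 144989807 to 144989823 in replicate 1 (score 13) and 144989790 to 144989817 in replicate 2 (score 11). These share 11 nt and lie 807 and 790 nt from the 3′ end of the interval.

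Sites of high score were few on these mRNAs. Their portion of the summed scores averaged 0.0285% ± 0.0179 (SD, n = 2), at 0.0158% in replicate 1 and 0.0412% in replicate 2, against 0.124% and 0.147% of the sites. The sum rests on a few sites elsewhere: with the 10 strongest of each list left out of it, the portion averaged 0.0511%. Scores of at least 100 were reached by 2 of 21 member sites in replicate 1 (9.52%, 95% Wilson interval 2.65 to 28.9) beside 14.8% of the whole list. In replicate 2 they were reached by 1 of 82 (1.22%, 0.216 to 6.59) beside 7.34%. The replicate 2 share lay below the whole-list value, and the replicate 1 interval included it. Both replicate 1 sites of such a score lay in PRKDC, 11 nt apart. At the centre of the distribution, the members resembled their lists. The median member score was 33 in replicate 1 beside 26 for the list, and 19.5 in replicate 2 beside 19. Site length was also ordinary, with medians of 15 nt and 16.5 nt beside 16 nt and 17 nt. The longest member site, of 38 nt, lay in PRKDC in replicate 2.

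**Figure D2:**
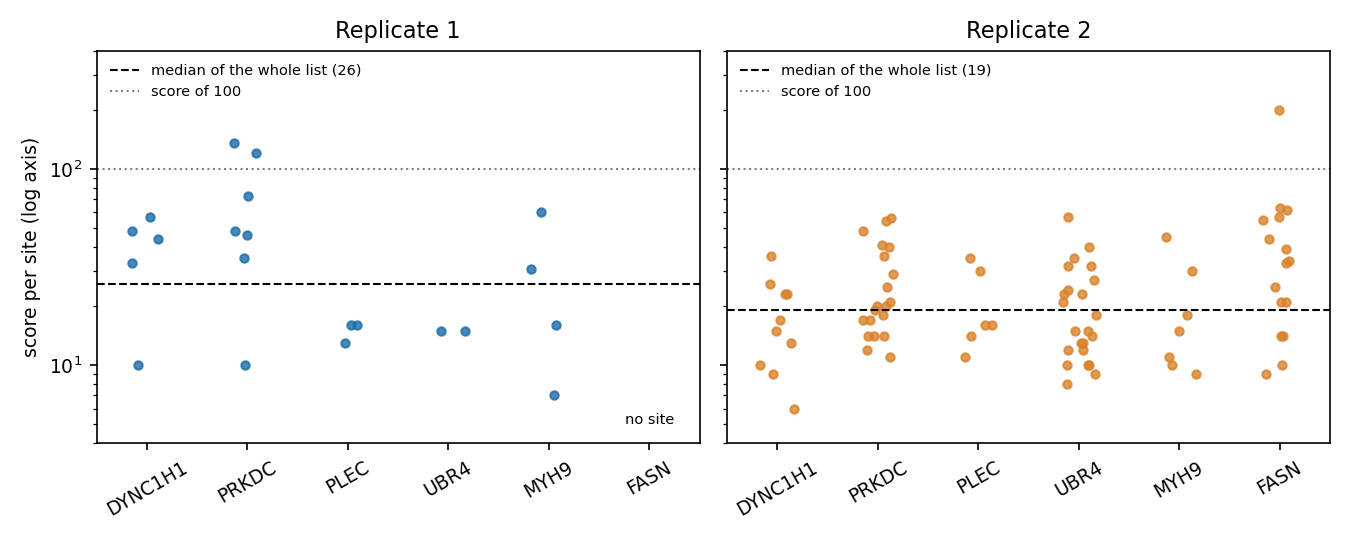
Score of every member site on a log axis, by gene, with 1 point per site (horizontal spread is for legibility only); the dashed line is the median of the whole list and the dotted line a score of 100. PRKDC in replicate 1 (121 and 135) and FASN in replicate 2 (200) are the genes with points above 100.

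The shares of members found in both libraries lay near those of the whole lists. Of the member sites, 4 of 21 in replicate 1 (19.0%, 95% Wilson interval 7.67 to 40.0) touched a replicate 2 site on the same strand, beside 21.3% of the whole list. Seen from replicate 2, these were 4 of 82 (4.88%, 1.91 to 11.9), beside 6.50%. List sites in the score range of the members (7 to 135 in replicate 1, 6 to 200 in replicate 2) overlapped in 17.6% and 5.55% of cases. The 4 pairs were the 2 of PRKDC and 1 each of PLEC and MYH9; DYNC1H1, UBR4 and FASN had none. Over the 4 pairs, the score in replicate 2 relative to replicate 1 had a median log2 value of -0.02, with 2 pairs higher in each library, beside a median of -0.21 over the 3636 pairs of the whole lists. The edges of the PRKDC pairs differed by 1 or 2 nt, and those of the PLEC and MYH9 pairs by 6 to 17 nt.

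Beyond direct overlap, fewer replicate 2 members than list sites lay near a replicate 1 site, a difference that rested on UBR4 and FASN. Of the replicate 2 member sites, 13 of 82 (15.9%, 95% Wilson interval 9.51 to 25.3) lay at most 1 kb from a same-strand site of replicate 1, beside 29.5% of the list. UBR4 had 1 such site of 23 and FASN 0 of 16. The FASN value was fixed, since replicate 1 listed no minus-strand site over 160.7 kb around that gene. In UBR4, replicate 1 listed only 2 sites. These values thus restate the difference in site numbers. Without UBR4 and FASN, a choice made after their values were seen, 12 of 43 (27.9%, 16.7 to 42.7) had such a neighbour, near the share of the list. In the other direction, 9 of 21 replicate 1 members (42.9%, 24.5 to 63.5) had a replicate 2 neighbour that near, beside 53.3% of the list.

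Positions along the genes were described from the 5′ to the 3′ end of each interval. The median position of member sites was 43.2% of the interval in replicate 1 and 56.1% in replicate 2, with no shared lean to either end. Single genes had their own patterns. In replicate 2, 16 of the 23 UBR4 sites lay 5′ of the midpoint and none beyond 68.9% of the interval. The last 33.3 kb of UBR4, from 76.0% on, held no site in either list. FASN had the opposite layout, with 13 of its 16 sites 3′ of the midpoint. PRKDC sites of replicate 2 were split 10 and 10, in a 5′ group up to 25.5% and a 3′ group from 53.1%, although replicate 1 had its strongest sites between them, at 37.2%. MYH9 had 3 of 4 and 6 of 7 sites 3′ of the midpoint, and its longest empty stretch in both lists, 38.9 kb, ran from 1.01% to 37.0%. The corresponding stretches were 18.4 kb in DYNC1H1, 25.6 kb in PRKDC, 24.8 kb in PLEC and 4.82 kb in FASN.

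The 3′ ends of the intervals, taken as their final 5%, held sites in 5 of the 6 genes. The final 5% of the intervals, a bound chosen after the values were seen, held 3 of 21 replicate 1 sites (14.3%, 95% Wilson interval 4.98 to 34.6) and 10 of 82 replicate 2 sites (12.2%, 6.76 to 21.0). In replicate 2 these were 3 sites of PRKDC, 3 of MYH9, 2 of FASN and 1 each of PLEC and DYNC1H1. In replicate 1 they were 2 of PLEC and 1 of MYH9. The overlapping pairs of PLEC and MYH9 were among them, at 98.7% and 99.3% of their intervals in replicate 1. UBR4 had none in either list. As a percentage, the bound covers unlike lengths, being 5% of 187.75 kb in PRKDC and of 21 kb in FASN. The 3 PRKDC sites lay 6125, 6159 and 8764 nt from the end of the interval, and the first 2 of them were 17 nt apart. No matching share was computed for other genes, so these shares cannot be read as an excess over 5%.

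**Figure D3:**
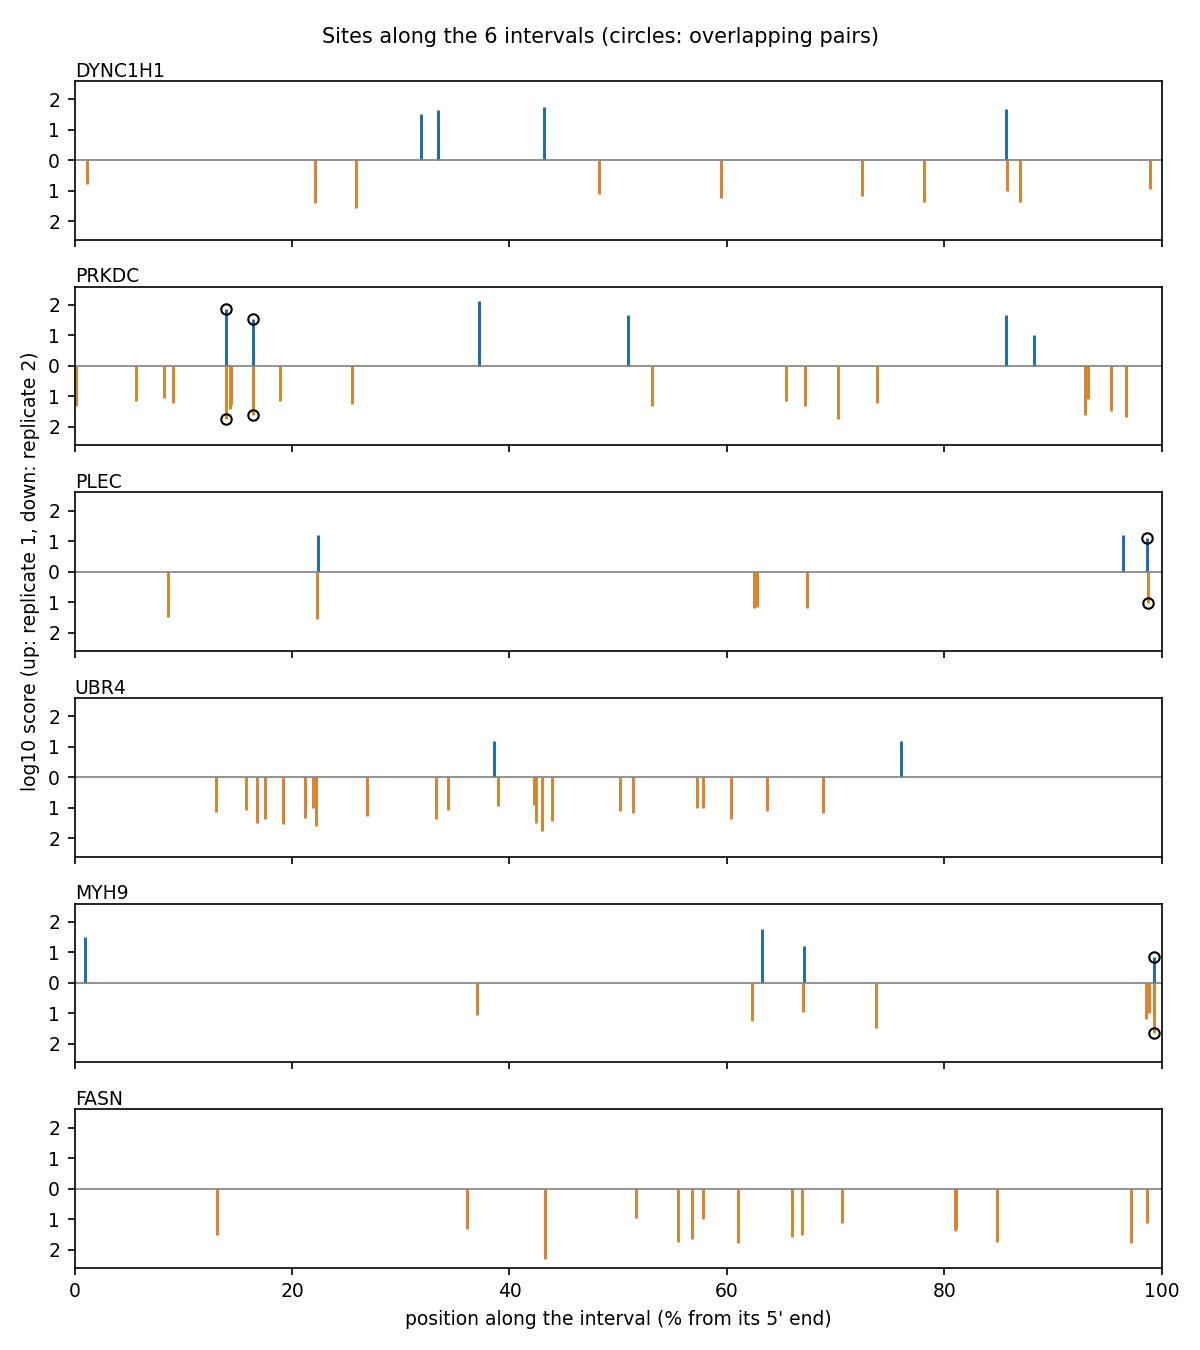
Sites along the 6 intervals, in percent from the 5′ end, as lines whose length is the log10 score, drawn upwards for replicate 1 and downwards for replicate 2; circles mark the 4 overlapping pairs. The pairs sit near 14.0% and 16.4% of PRKDC and in the last 2% of PLEC and MYH9, and the 3′ end of UBR4 is empty from 76.0% on.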

How the data were processed

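PAR-CLIP sites were deposited as 1 list per library, 2 in all. Per the submitters' processing notes, bcl2fastq, Bowtie 1.1.2 and the build hg19 were used. No source used names the site caller, its thresholds or how multiply matching reads were treated. The deposited score is never below 5, takes whole values and has no recorded normalization. Read depth is unknown, and 18 PCR cycles per the labels' protocols leave intervals that cover counting error over sites only.

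The members' intervals were fixed in kb on hg19, and the members and summaries were chosen with earlier results of these data known. A site belonged to a gene when it shared at least 1 nt with the interval on the gene's strand, and it overlapped the other list under the same criterion. Positions count from 1. Shares have 95% Wilson intervals. Since there is 1 group without controls, no test between groups was made. Sites named for each gene were the highest-scoring of each replicate, the overlapping pairs and the longest empty stretch; close neighbours and others were chosen after their values were seen. GENCODE release 29 gave transcript lengths, not positions. Calculations ran in Python 3.11.15 (numpy 2.4.6, pandas 2.3.3), with the overlap step tested on simulated data.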

Additional observations from a re-analysis of the deposited data

How the results depend on the processing

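Of 45 alternatives, 38 left the value within 1.5-fold for a number of sites, within its Wilson interval for a share, or within 1 SD otherwise. Some of the 38 could not have come out differently. With 2 libraries, leaving out 1 always stays within 1 SD of their mean. Replicate 1 keeps all its sites when limited to its own number, and leaving out DYNC1H1, UBR4 or FASN removes no pair. The count of 38 is therefore not a measure of stability. The number of member sites did not hold at a score of at least 100, where 2 and 1 were left in replicates 1 and 2. With replicate 2 limited to as many of its highest-scoring sites as replicate 1 has, it held 23 member sites in place of 82, and 13.0% of these overlapped replicate 1. The share of the score sum was 0.0511% with the 10 strongest sites of each list left out of the sum. The mean position of member sites was taken within each library and then averaged over the 2 libraries. It was 52.6% of the interval, 51.2% when weighted by log10 score and 40.2% for sites scoring at least 100. The latter are 3 in number, and the 1 site of replicate 2 weighs as much as the 2 of replicate 1. Leaving out either replicate gave 0.124% and 0.147% for the share of sites, 0.0158% and 0.0412% for the share of score, and 43.2% and 56.1% for the median position; it leaves no overlap to compute. Requiring 50% of both sites kept 2 of the 4 pairs in PRKDC, at 9.52% of replicate 1 members, and a gap of up to 50 nt raised that share to 28.6%. Without PRKDC, an alternative chosen after seeing the data, 14.3% of replicate 1 members and 3.23% of replicate 2 members overlapped. The median log2 score ratio of the 4 pairs ran from -0.24 without MYH9 to 1.22 without PRKDC, so its sign is not settled. Widening the intervals by 10 kb added 1 site in replicate 1 and 8 in replicate 2, of which 6 flanked UBR4. By the GENCODE models, EMC1 lies within 10 kb of UBR4 on the same strand, and CCDC57 within 10 kb of FASN. PARP10 lies that near to PLEC, where widening added no site. To which gene the added sites belong was not determined. No paired analysis was possible because both libraries belong to 1 group.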

Other observations

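The names of the sites hold a number that rises along each strand of each chromosome, and sites a few nt apart can share it. Among the member sites, 4 in each replicate shared a number with a neighbour, among them the PRKDC sites of replicate 1 that scored at least 100. The numbering reached 248010 in replicate 1 and 235517 in replicate 2, although 6.75% of the numbers had a listed site in the former and 22.2% in the latter. No source used says what an unlisted number stands for. Around FASN, 81 numbers lay between the nearest replicate 1 sites outside the interval, which are 160.7 kb apart, and none had a site inside it. In replicate 2, 54 numbers lay between the nearest outside sites, 34.2 kb apart, and 15 had a site in FASN. UBR4 had sites for 2 of 117 such numbers (1.71%) in replicate 1 and for 23 of 93 (24.7%) in replicate 2. For DYNC1H1 the figures were 4 of 71 (5.63%) and 10 of 67 (14.9%), and for PRKDC 6 of 108 (5.56%) and 19 of 127 (15.0%). MYH9 had 4 of 62 (6.45%) and 7 of 41 (17.1%), and PLEC 3 of 51 (5.88%) and 6 of 41 (14.6%). The nearest outside sites were 354.9 and 149.2 kb apart around UBR4 in replicates 1 and 2, and 10027.6 and 4244.3 kb around PRKDC. Windows of such unlike width hold no listed site outside the interval by construction. Their percentages therefore cannot be set against those of the whole lists or ranked between genes.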
